A study of Homo sapiens with 21 samples.

Results

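Starved MCF10A cells that had not yet received epidermal growth factor (EGF) were profiled on 3 exon arrays, which are the 0 min arrays among the 21 arrays of an EGF time course. MCF10A is an immortalised, non-tumorigenic line of human mammary epithelial cells whose growth in culture depends on added EGF. Per the labels, low-passage cells obtained from ATCC were kept for 24 h without EGF and then starved for 24 h in DMEM/F12 holding 1% horse serum and Pen/Strep, and the 3 arrays are biological triplicates. The remaining 18 arrays carry RNA of cells harvested 20 to 480 min after EGF at 20 ng/ml, and enter here only through the spread between their own replicates. The RNA was treated with DNase and depleted of ribosomal RNA, and the labelled target was hybridised to an array that carries probesets for single exons. The cells are a cultured line, so the levels describe this line under these conditions and not a tissue, and no array of unstarved cells was analysed here.

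Growth factor withdrawal takes epithelial cells out of the cell cycle, a reversible state called quiescence. EGF binds EGFR, which pairs with itself or with another receptor of the ERBB family and signals through RAS and the ERK kinases to the immediate early genes, which are transcribed without new protein synthesis. Without growth factors, AKT signalling is low, FOXO transcription factors stay in the nucleus, and the RB family together with the DREAM complex keeps cell cycle genes repressed. In the mammary gland, basal cells carry KRT5, KRT14 and the transcription factor TP63, whereas luminal cells carry KRT8 and KRT18, and part of them oestrogen receptor.

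A gene's level was the median of log2(intensity + 16) over its probesets, which gave 18544 genes with 3 or more probesets. The median gene had a level of 6.05, equal to an intensity of 50.2, and the levels at the 5th and 95th percentiles of genes were 4.58 and 8.61. Probes of different genes respond differently to the same amount of RNA. The order of genes is therefore an order of signal and not of transcript number, and small steps between genes carry no weight. Genes were set against 281 olfactory receptor genes, which encode odorant receptors and are not known as mammary transcripts. The 95th percentile of these genes was 5.58, 5.41 and 5.51 on replicates 1, 2 and 3, and 11173 of the 18544 genes (60.3%) exceeded it on all 3 arrays.

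That range is lenient. The keratin-associated protein genes, named KRTAP and known from hair shafts, also exceeded it in 30 of 58 cases, and their own 95th percentile lay at 7.66, 7.79 and 7.70 on the 3 arrays. This KRTAP range was added after the data had been seen, and 2092 genes (11.3%) exceeded it on all 3 arrays. Of the KRTAP genes, 3 also exceeded it on all arrays, and the highest, KRTAP5-7, had a mean of 8.97. A level above either range is thus not a detection call. Counts below are to be read against 60.3% of genes for the olfactory receptor range and 11.3% for the KRTAP range.

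Replicate 1 stood apart from replicates 2 and 3. Across genes, Pearson's r was 0.984 between replicates 2 and 3, 0.977 between 1 and 2, and 0.973 between 1 and 3, where genes are not independent replicates. The median absolute difference of a gene was 0.142 between replicates 2 and 3, against 0.173 between 1 and 2 and 0.179 between 1 and 3. Replicate 1 was the array farthest from the median of the 3 in 41.2% of genes, replicate 2 in 28.4% and replicate 3 in 30.4%. The array medians over all probesets were close, between 20.51 and 20.55 intensity units. For many genes values are given by array below, so that these can be read without replicate 1. The other genes are given as mean ± SD over all 3 arrays.

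Basal keratins were among the genes with the highest levels. KRT5, a keratin of the basal layer, had the highest mean level of the 18544 genes, at 12.47, 12.49 and 12.38 on replicates 1, 2 and 3, a mean of 12.45 ± 0.06 (SD, n = 3) that equals an intensity of 5569 ± 219. The 3 arrays were close together. KRT14, the partner that forms filaments with KRT5, had 11.79, 11.18 and 11.14, with replicate 1 above the other two. KRT17, a keratin of basal and wounded epithelium, had 11.19, 11.56 and 11.24, and here replicate 2 was the high one. KRT14, KRT16 and KRT17 are close paralogs, as are KRT6A, KRT6B and KRT6C, so probes can share signal within each set and their separate levels are uncertain.

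The rest of the basal and squamous list pointed the same way. All 23 measured members of the 26 listed exceeded the olfactory receptor range and 20 exceeded the KRTAP range, and the median member stood at 10.20, the 99.4th percentile of all genes. SFN, the 14-3-3 sigma protein of stratified epithelium, had a mean of 11.13 ± 0.14. TRIM29, a basal cell protein that binds p53, had 11.07, 11.01 and 11.01, which was among the smaller spreads of the list at an SD of 0.04. TP63, the transcription factor that maintains basal identity, had 8.80, 9.22 and 8.95. Other high members were the desmosomal cadherins DSG3 (10.65 ± 0.12) and DSC3 (10.48 ± 0.21), the hemidesmosome genes COL17A1 (10.33 ± 0.13), ITGB4 (10.08 ± 0.23) and ITGA6 (10.03 ± 0.31), and the laminin chain gene LAMB3 (9.79 ± 0.08). The 3 members outside the KRTAP range on at least 1 array were LAMA3 (7.61 ± 0.17), the calcium-binding S100A2 (7.45 ± 0.18) and the desmosomal plaque gene PKP1 (6.07 ± 0.18), and PKP1 lay at the middle of all genes.

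Luminal markers differed widely in level. The simple-epithelium keratins lay above the KRTAP range. KRT8 had 9.83, 9.81 and 9.88, KRT7 had 9.58, 9.33 and 9.04, and KRT18 had 8.48, 8.43 and 8.76. MUC1, an apical mucin, had 8.62, 8.54 and 8.32, and GATA3, a transcription factor of the luminal lineage, had 7.93, 7.62 and 7.78. These genes, KRT8, KRT7, KRT18 and MUC1 on every array and GATA3 on 2 of 3, were above the KRTAP range. By contrast the hormone receptors measured in this list lay low, as did some other members. ESR1, the oestrogen receptor, had 5.18, 5.39 and 5.33, PGR, the progesterone receptor, had 4.70, 4.55 and 4.53, and KIT, a receptor of luminal progenitors, had 4.68, 4.59 and 4.63. None of ESR1, PGR, KIT, AGR2, TFF1, ELF5 and PRLR exceeded the olfactory receptor range on any array. In all, 8 of 16 measured luminal genes exceeded that range and 4 the KRTAP range, and the list median of 5.83 lay at the 43.9th percentile. The 8 include some of FOXA1, XBP1, TFF3 and SPDEF, whose values are not given here. In bulk RNA, fewer cells of a type and less RNA per cell cannot be told apart, so these values do not say whether KRT8 and GATA3 signal came from the KRT5 cells or from others.

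The contractile genes of myoepithelium, the basal cells that eject milk, were divided in level. Of 10 measured, 5 exceeded the olfactory receptor range, against 60.3% of all genes. The list median of 5.73 lay at the 41.0th percentile. MME, the cell surface peptidase CD10, was the highest at 8.11 ± 0.14 and the only one of 10 above the KRTAP range on all arrays. CALD1 (7.78 ± 0.15), TAGLN (7.72 ± 0.36) and ACTA2 (7.68 ± 0.10), which serve actin contraction, stood close beneath it, with replicates that overlapped among the 3 genes. MYH11, the smooth muscle myosin, had 5.37, 5.33 and 5.47 and exceeded neither range on any array. ACTG2 had 5.30, 5.63 and 5.36 and OXTR, the oxytocin receptor, had 5.51, 5.41 and 5.41, and each exceeded the olfactory receptor range on 1 array. The 5 milk protein genes had a median of 4.50 and none exceeded the olfactory receptor range.

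Cell adhesion genes of epithelium were high as a group. Of 21 measured, 19 exceeded the olfactory receptor range and 13 the KRTAP range, with a median of 8.34 at the 93.3rd percentile. DSP, which anchors keratin filaments at desmosomes, had 10.84, 10.95 and 10.92, and CDH1, the adherens junction cadherin, had 10.28, 10.17 and 10.20. In both genes the 3 arrays were close together. The lowest members were EPCAM, an adhesion molecule of simple epithelia, at 5.75 ± 0.24, CLDN4, a tight junction claudin, at 5.84, 5.77 and 5.68, and GRHL2, an epithelial transcription factor, at 5.06, 5.10 and 5.06. GRHL2 did not exceed the olfactory receptor range on any array, although its transcriptional target CDH1 stood among the 114 highest genes.

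Several genes known from mesenchyme also had signal well above the median gene. FN1, the matrix protein fibronectin, had 8.64, 8.93 and 9.04, SNAI2, a repressor of epithelial genes that basal cells also carry, had 9.08, 8.73 and 8.72, SPARC had 8.20, 8.36 and 8.45, and VIM, the intermediate filament vimentin, had 8.21, 8.30 and 8.34. All 4 were above the KRTAP range on every array, and the remaining 16 measured genes of the list were not. COL1A1, a fibrillar collagen, had 7.66, 7.66 and 7.44, and CDH2, N-cadherin, had 7.24 ± 0.18. The regulators ZEB1 (5.08 ± 0.09), ZEB2 (5.03 ± 0.08) and SNAI1 (4.96 ± 0.11) and the fibroblast genes PDGFRA (5.03 ± 0.07), POSTN (4.84 ± 0.06) and LUM (4.58 ± 0.09) were below the olfactory receptor range on every array. Over the list, 9 of 20 exceeded the olfactory receptor range and the median was 5.49, at the 34.0th percentile.

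Markers of other lineages gave little signal. Of 8 endothelial genes only CLDN5 (6.46 ± 0.12) exceeded the olfactory receptor range, while PECAM1 stood at 4.72 ± 0.03. Of 8 leukocyte genes CSF1R (6.04 ± 0.19), CD14 (5.92 ± 0.08) and ITGAM (5.77 ± 0.08) exceeded it, while PTPRC, the pan-leukocyte CD45, stood at 4.52 ± 0.02 and CD3D at 4.78 ± 0.31. Of 6 adipocyte genes only FABP4 (6.07 ± 0.09) exceeded it on all arrays. A list of liver, neuron and muscle genes, which also holds the insulin gene INS, gave 4 of 16 above the range. They were INS (6.90 ± 0.39), TNNT2 (6.54 ± 0.13), ACTA1 (6.46 ± 0.25) and APOA1 (5.92 ± 0.30), which shows the signal such genes reach on these arrays. No gene of these 4 lists exceeded the KRTAP range on all 3 arrays.

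**Figure D1:**
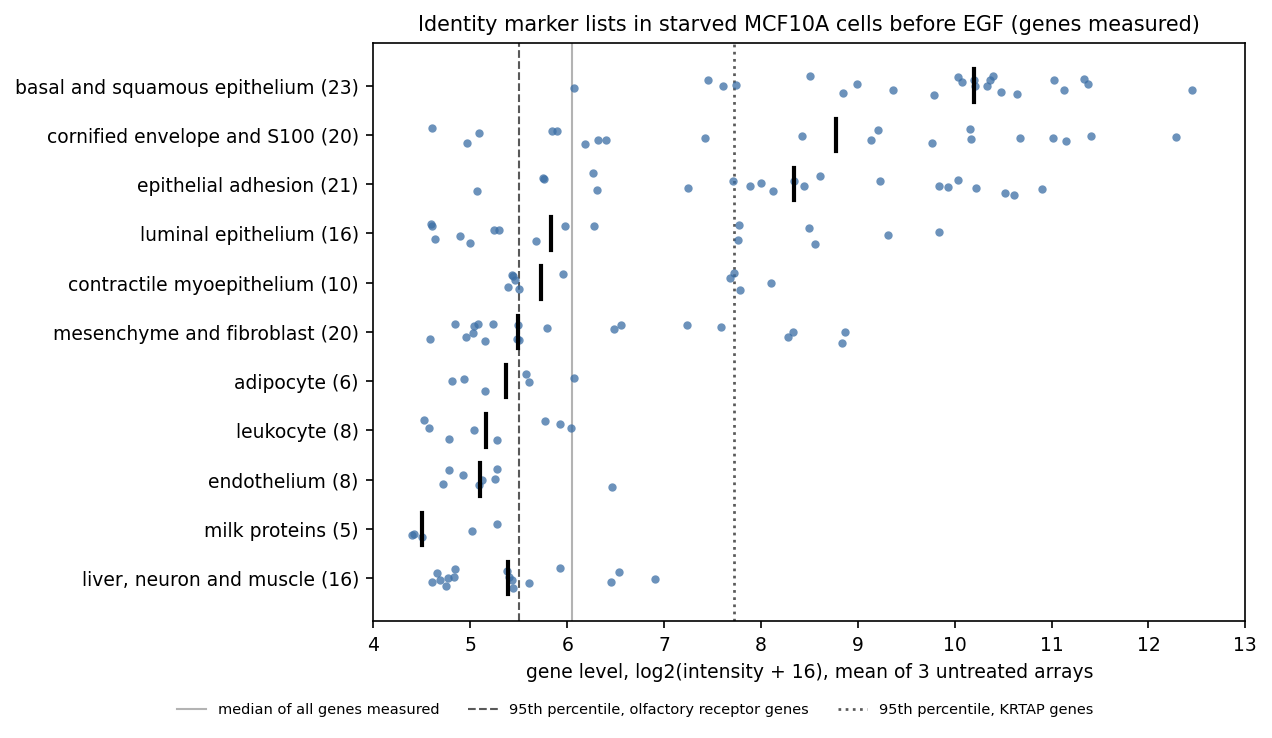
Gene levels of 11 marker lists in the untreated cells, with log2(intensity + 16) on the horizontal axis and 1 point per measured gene at its mean over 3 arrays. Thick bars mark list medians, from 10.20 for the basal and squamous list to 4.50 for milk proteins. The vertical lines mark the median gene (6.05) and the 95th percentiles of olfactory receptor and KRTAP genes, averaged over the arrays, and the number of genes follows each list's name.

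Genes of the cornified envelope, the cross-linked shell of squamous keratinocytes, and of the S100 and annexin families covered almost the whole scale. KRT10, a keratin of differentiating layers, had 12.34, 12.27 and 12.23 and was the 4th highest of all genes, and its partner KRT1 had 11.05, 11.18 and 10.83. KRT1 resembles KRT5 in sequence and type I keratins resemble KRT10, so probes can share signal; what part of the KRT1 and KRT10 values this makes up was not tested. S100A10 (11.41 ± 0.09) and ANXA2 (11.15 ± 0.19), which form a complex at the plasma membrane, were also high, with overlapping replicates. SPRR1B, an envelope precursor, had 10.16 ± 0.16, and S100A8, an alarmin of keratinocytes and neutrophils, 9.20 ± 0.38. At the other end S100A7 had 4.73, 4.48 and 4.60, SPRR3 had 5.07, 5.00 and 4.82, and TGM3, a transglutaminase, had 5.18, 5.02 and 5.08, all within the olfactory receptor range. Involucrin, IVL, the substrate of envelope cross-linking, had 6.11, 6.65 and 6.45. In all, 16 of 20 exceeded the olfactory receptor range and 11 the KRTAP range, with a median of 8.78 at the 95.9th percentile.

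The promoters of this list shared a feature that the choice of genes did not use. A TATA box binds the general factor TBP and sits just upstream of a start site. The letters TATAAA were searched on the gene's own strand, wholly within bases -45 to -21 before the start of each RefSeq gene (GRCh38.p14), with no other motif searched, so none could overlap it. Of the 20 genes measured, 16 had a promoter in the table, and 11 of the 16 (68.8%) held the motif, against 704 of all 27305 promoters (2.58%). The 11 were IVL, SPRR1A, SPRR2A, SPRR3, KRT10, FLG, TGM3, S100A7, S100A9, ANXA1 and ANXA2. They included genes at both ends of the scale, such as KRT10 at 12.28 and S100A7 at 4.60. The median level was 6.32 for the 11 genes with the motif and 10.17 for the 5 without it, and this difference was not tested. Many of these genes are neighbours in the epidermal gene cluster of chromosome 1 and arose by duplication, so they are not independent cases. The last 60 bases before the start are shown for KRT10 and ANXA2, which were high, S100A7 and SPRR3, which were low, and SPRR1B and S100A10, which were high without the motif. Capitals mark the motif, and a match is a description of letters and not a tested site. Only exact letters were counted, and the SPRR1B window holds cataaa, which differs in its first letter.
KRT10, chr17:40822615-40822674, minus strand: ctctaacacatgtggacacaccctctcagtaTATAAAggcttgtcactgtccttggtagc
ANXA2, chr15:60397987-60398046, minus strand: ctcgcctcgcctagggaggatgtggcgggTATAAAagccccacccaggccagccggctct
S100A7, chr1:153460652-153460711, minus strand: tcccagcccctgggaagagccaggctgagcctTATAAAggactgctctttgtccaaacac
SPRR3, chr1:153001689-153001748, plus strand: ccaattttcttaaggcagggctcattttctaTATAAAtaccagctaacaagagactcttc
SPRR1B, chr1:153031143-153031202, plus strand: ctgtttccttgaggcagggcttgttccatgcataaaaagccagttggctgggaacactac
S100A10, chr1:151993860-151993919, minus strand: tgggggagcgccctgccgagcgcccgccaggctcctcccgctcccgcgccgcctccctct

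Among the other 15 lists of which at least 80% of the measured genes had a promoter in the table, 8 held no match. The highest shares among the other 7 were 2 of 5 milk protein genes (40.0%) and 4 of 12 reference genes (33.3%), so a share above 2.58% was not particular to the cornified list. The KRTAP genes, set aside as a yardstick for level, held it in 26 of 47 promoters. The basal list could not be assessed, since 65.2% of its measured genes had a promoter there.

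The receptor gene for the coming stimulus was high among all genes, at a level that KRTAP5-7 also reached (mean 8.97). EGFR had 8.94, 9.01 and 8.92, a mean of 8.96 ± 0.05 (SD, n = 3) or an intensity of 481 ± 16, which placed it at the 96.7th percentile. ERBB2, the family member with no known ligand, had 7.73, 7.46 and 7.58 and exceeded the KRTAP range on replicate 1 alone. ERBB3, whose kinase is weak and which signals through a partner, had 6.68, 6.86 and 6.65. ERBB4, a neuregulin receptor, had 4.91, 4.86 and 4.83 and exceeded neither range. The order EGFR, ERBB2, ERBB3, ERBB4 was the same on all 3 arrays. The same probes read every array, so this is a repeated order of signal and does not rank the amounts of the 4 transcripts.

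Ligands of the same family differed as widely. EPGN, epigen, which binds EGFR, had 8.99, 9.34 and 9.48, the highest of the 10 measured ligands and the only one above the KRTAP range. Replicate 1 was the low one, and EPGN was highest on each array. HBEGF, a membrane-anchored ligand released by shedding, had 6.58, 7.27 and 6.92, and EREG, epiregulin, had 6.92, 6.84 and 6.82, so their replicates overlapped and their order was not fixed. TGFA, another EGFR ligand, had 6.33, 6.45 and 6.39, followed by the neuregulins NRG2 (6.23 ± 0.12) and NRG1 (6.01 ± 0.13), whose replicate ranges overlapped. BTC, betacellulin, had 5.38, 5.90 and 5.25 and exceeded the olfactory receptor range on replicate 2 alone. NRG3 (5.14 ± 0.13), NRG4 (4.93 ± 0.11) and EGF itself, at 4.74, 4.82 and 4.77, were within that range on every array. AREG, amphiregulin, did not reach 3 probesets under its own name and has no value here. In all, 6 of 10 ligands exceeded the olfactory receptor range, which is the share of all genes (60.3%).

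Of 9 ligand promoters in the table, 2 held TATAAA in the same window. They were those of EPGN and EREG, which lie near each other on chromosome 4, and they are shown beside EGFR, which had no match.
EPGN, chr4:74308410-74308469, plus strand: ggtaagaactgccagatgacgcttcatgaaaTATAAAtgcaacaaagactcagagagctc
EREG, chr4:74365085-74365144, plus strand: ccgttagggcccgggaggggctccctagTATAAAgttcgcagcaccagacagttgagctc
EGFR, chr7:55018957-55019016, plus strand: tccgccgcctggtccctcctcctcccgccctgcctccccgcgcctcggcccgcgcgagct

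Other receptor tyrosine kinases were a mixed set. Of 46 measured, 24 exceeded the olfactory receptor range (52.2%, against 60.3% of all genes) and 7 the KRTAP range (15.2%, against 11.3%). DDR1, a collagen receptor of epithelia, had 9.11, 9.19 and 9.12. IGF1R, the receptor for insulin-like growth factors, had 9.07, 8.89 and 8.83, and MET, the receptor for hepatocyte growth factor, had 8.33, 8.35 and 8.24. The other 4 above the KRTAP range were EPHA4 (8.76 ± 0.06), ROS1 (8.56 ± 0.26), AXL (8.07 ± 0.15) and EPHA2 (7.91 ± 0.08). RYK, a Wnt co-receptor, had the widest spread of the list, with an SD of 0.45 and replicate 1 the lowest at 7.37. FLT1, FLT3 and KDR, known from endothelium and blood, lay between 4.64 and 4.78 on average, and none exceeded the olfactory receptor range on any array.

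**Figure D2:**
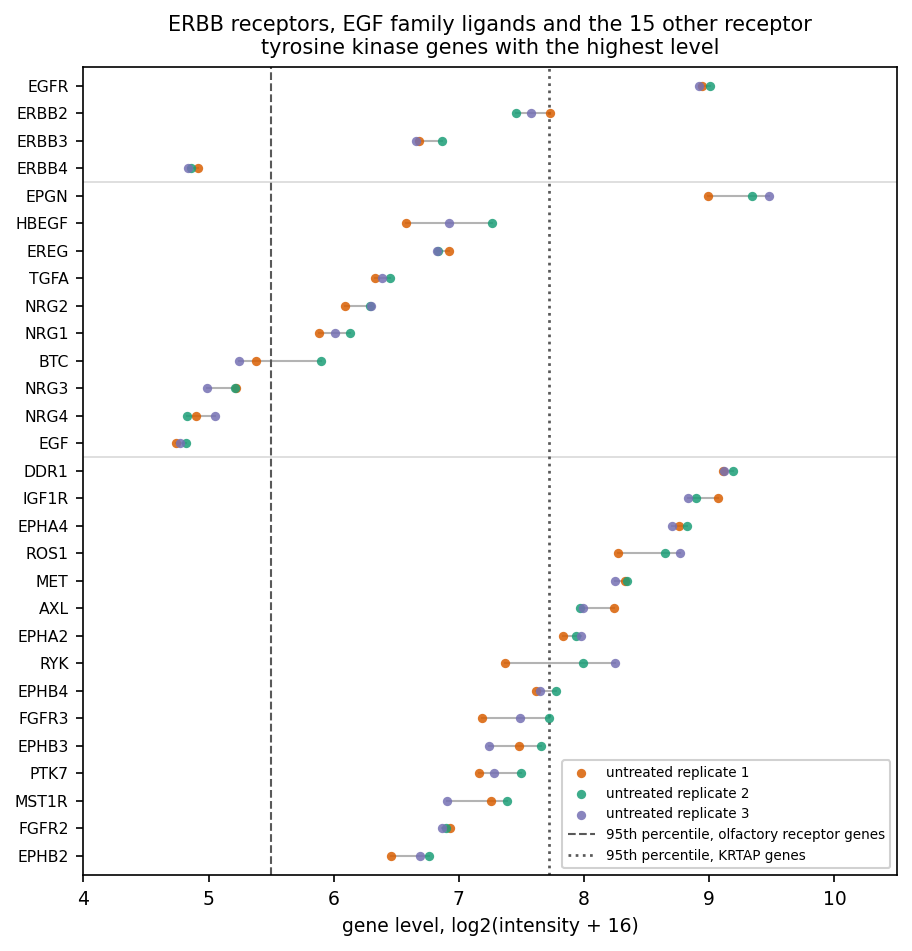
Levels of the 4 ERBB receptors, the 10 measured EGF family ligands and the 15 highest other receptor tyrosine kinase genes on the 3 untreated arrays, with log2(intensity + 16) on the horizontal axis and 1 coloured point per array. EGFR (8.92 to 9.01) and EPGN (8.99 to 9.48) lie to the right of both vertical lines, whereas ERBB4 and EGF lie to the left of both.

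Receptors for growth inhibitors, cytokines and steroids differed in level as well. TGFBR2, the type II receptor for TGF-beta, had 8.70, 9.08 and 9.18. BMPR1A (8.56 ± 0.10), TGFBR1 (8.03 ± 0.13) and BMPR2 (7.95 ± 0.12) also exceeded the KRTAP range on all arrays. Of that list of 13, 10 exceeded the olfactory receptor range (76.9%) and 4 the KRTAP range (30.8%). Among cytokine receptors, IFNGR1 (8.26 ± 0.34) and IL10RB (8.07 ± 0.16) were highest. Of 22, 13 exceeded the olfactory receptor range (59.1%) and 2 the KRTAP range (9.1%), near the shares of all genes (60.3% and 11.3%). Of 19 nuclear receptors, NR3C1, the glucocorticoid receptor, had 8.18, 8.53 and 8.55 and RARG, a retinoic acid receptor, had 8.09, 8.08 and 8.18, and these alone exceeded the KRTAP range on every array. Within the cascade that links EGFR to ERK, all 13 measured genes exceeded the olfactory receptor range and 6 the KRTAP range, and the adaptor SHC1 was the highest at 9.35 ± 0.05. GAB1, a docking protein, was the lowest at 7.04 ± 0.23. The 5 other cascade genes listed have no value here.

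Immediate early genes differed widely in level before the stimulus. MYC, a transcription factor that drives growth, had 8.94, 8.72 and 9.37, from only 3 probesets. JUNB, an AP-1 subunit, had 8.88, 8.88 and 8.86, FOSL2, another AP-1 subunit, had 8.75, 8.82 and 8.66, and EGR1, a zinc finger factor, had 8.55, 8.63 and 8.72. All 4 exceeded the KRTAP range on every array, and JUNB had nearly identical values on the 3. JUNB, FOSL2 and EGR1 stayed below the mean of KRTAP5-7 (8.97) on every array, and MYC exceeded it on replicate 3 alone. These levels are therefore not detection calls. FOS had 5.68, 5.99 and 5.06 and exceeded the olfactory receptor range on replicates 1 and 2 only. FOSB (5.22 ± 0.15), NR4A1 (5.21 ± 0.22) and NR4A3 (4.96 ± 0.24), a FOS paralog and orphan nuclear receptors, were within that range on every array. In this list 21 of 26 exceeded the olfactory receptor range and 6 the KRTAP range (23.1%), with a median of 7.07. Of 14 feedback inhibitors of ERK signalling, 12 exceeded the olfactory receptor range and 3 the KRTAP range, led by DUSP7 (8.04 ± 0.10), a phosphatase of ERK, SPRY2 (7.93 ± 0.18) and ERRFI1 (7.80 ± 0.10), an inhibitor of EGFR. SPRY4 was low at 4.84, 5.43 and 5.52, with replicate 1 apart.

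Among quiescence genes, TXNIP stood out. TXNIP, which binds thioredoxin, restrains glucose uptake and is transcribed when FOXO and MondoA factors are active, had 11.17, 11.35 and 11.36, a mean of 11.29 ± 0.10 (SD, n = 3) that ranked 19th of 18544 genes. Its relative ARRDC4, an alpha-arrestin also known as a MondoA target, had 9.90 ± 0.09. FBXO32, a ubiquitin ligase known as a FOXO target in muscle, had 9.02, 9.03 and 9.03, SESN3, a sestrin that restrains mTORC1, had 9.13, 8.56 and 8.77, and ARRDC3 had 8.05, 8.40 and 8.30. With CITED2 (7.82 ± 0.09), TXNIP, FBXO32, SESN3 and ARRDC3 were the 5 members of the FOXO list, which does not hold ARRDC4, above the KRTAP range on all arrays, of 20 measured, and 16 exceeded the olfactory receptor range. The factors themselves ran FOXO3 (7.75 ± 0.10), FOXO1 (7.38 ± 0.18), FOXO4 (6.17 ± 0.16) and FOXO6 (5.98 ± 0.26). Not every known target had signal. PDK4, a metabolic kinase, stood at 5.34 ± 0.11 and TRIM63, a muscle ubiquitin ligase, at 4.94 ± 0.14, within the olfactory receptor range on every array.

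Medians of several of these lists differed between cultures. That of the FOXO list was 6.93 on replicate 1, 7.40 on replicate 2 and 7.36 on replicate 3. In that list 13 of 20 genes were lowest on replicate 1, against 37.9% of all genes. The median of the 7 CDK inhibitors was 6.56, 6.80 and 7.29 on replicates 1, 2 and 3. It fell on CDKN2D, CDKN1C and CDKN1B in turn, so its steps are between genes. Of these 7 genes, 2 were lowest and 3 were highest on replicate 1. SESN1, another sestrin of the FOXO list, was low on replicate 1, at 6.64, 7.65 and 7.75, whereas SESN3 was highest on replicate 1. The part that array quality or handling of replicate 1 has in these differences was not tested.

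The CDK inhibitors were led by CDKN1A, p21, at 8.15, 8.40 and 8.49, the only one of 7 above the KRTAP range. CDKN1B, p27, the inhibitor most tied to quiescence, had 7.39, 7.36 and 7.29. CDKN1C, p57, had 7.11, 6.80 and 7.35, and CDKN2D had 6.56, 7.30 and 7.35 with replicate 1 low, so the order of these 2 was not fixed. CDKN2B had 6.14 ± 0.35 and CDKN2A had 5.82, 5.62 and 5.73. MCF10A is known to have lost the locus that holds CDKN2A and CDKN2B, yet both genes exceeded the olfactory receptor range on every array, at the 40.7th and 52.2nd percentiles of genes. Values of this height were thus reached by genes that the line is known to lack. CDKN2C had 5.75, 5.58 and 5.49 and failed that range on 1 array.

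Of the RB family, RB1 (7.59 ± 0.07) and RBL2, p130, the member bound to DREAM in quiescent cells (7.28 ± 0.22), had higher signal than RBL1, p107 (6.60 ± 0.28). RBL1 had 6.79, 6.28 and 6.72 and RBL2 7.48, 7.05 and 7.31. E2F4, the E2F factor of DREAM, had 7.55, 7.69 and 7.70, while E2F5, its close relative, had 4.86, 4.81 and 4.90 and did not exceed the olfactory receptor range. TFDP1, the partner of E2F factors (8.32 ± 0.27), RBBP4, a histone chaperone (8.31 ± 0.35), and DYRK1A, the kinase that starts DREAM assembly, were the 3 of 13 above the KRTAP range. LIN9, a core subunit, had 4.96, 5.76 and 5.68, with replicate 1 apart.

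**Figure D3:**
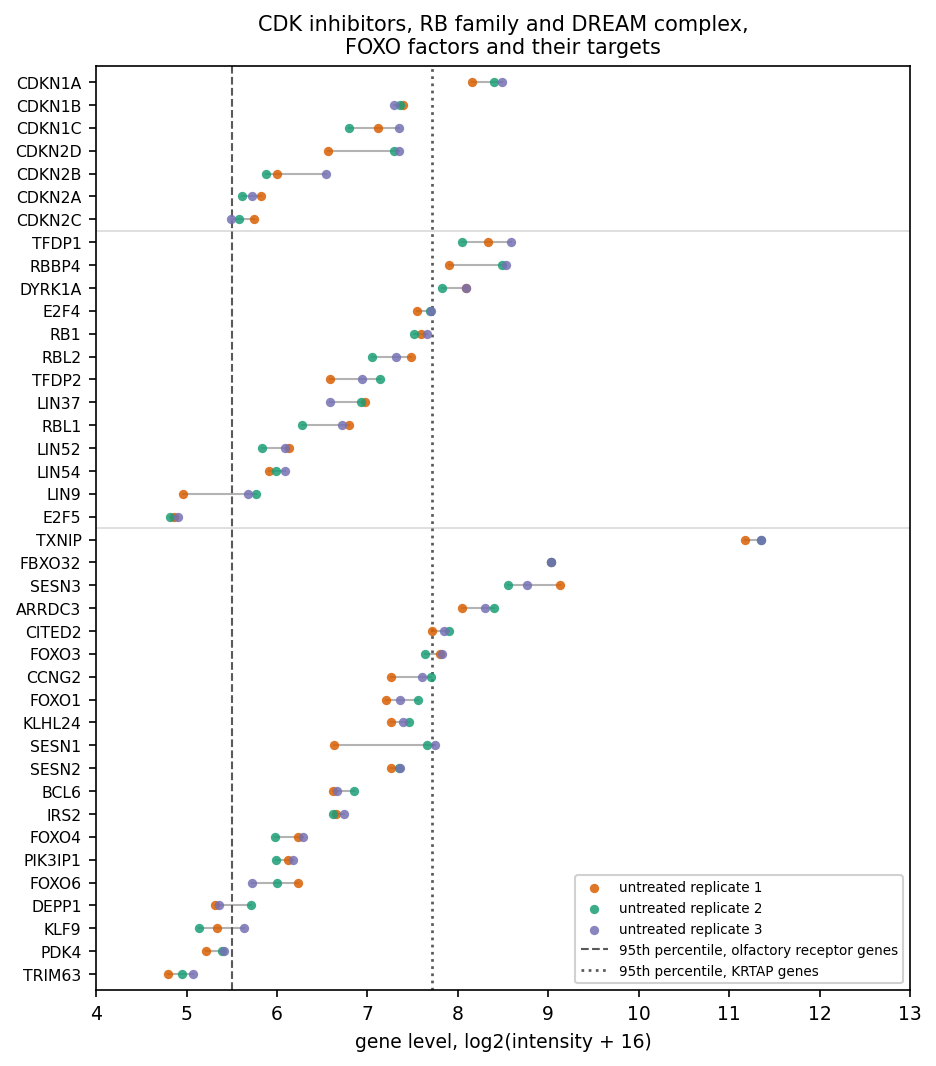
Levels of 7 CDK inhibitors, 13 genes of the RB family and DREAM complex, and 20 FOXO factors and targets on the 3 untreated arrays, with log2(intensity + 16) on the horizontal axis and 1 coloured point per array; points that coincide hide each other. TXNIP (11.17 to 11.36) lies farthest right, and SESN1 and LIN9 show replicate 1 well to the left of the other arrays.

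Genes that restrain proliferation by other routes were also above the all-gene share, with 23 of 25 (92.0%) over the olfactory receptor range and 9 (36.0%) over the KRTAP range. DNA replication genes (93.1%) and mitosis genes (89.3%) had similar shares over the olfactory receptor range, so that share is not particular to this list. After ARRDC4, the highest were CIRBP, a cold-inducible RNA-binding protein (9.01 ± 0.09), ZFP36L1, which promotes decay of AU-rich mRNAs (8.88 ± 0.19), GADD45A, a growth arrest and DNA damage gene (8.60 ± 0.07), and TOB1, an antiproliferative partner of the CCR4-NOT deadenylase (8.16 ± 0.12). YPEL1 (5.23 ± 0.14) was within the olfactory receptor range on every array. GADD45G ranged over 5.77, 6.37 and 5.20, with each replicate apart from the others.

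Cell cycle genes had signal above the median gene but seldom high signal. Of 29 DNA replication genes, 27 exceeded the olfactory receptor range and 1, the thymidylate synthase gene TYMS at 8.10, 8.01 and 7.89, exceeded the KRTAP range. Of 28 mitosis genes, 25 exceeded the olfactory receptor range and none the KRTAP range on all arrays. CCNB1, cyclin B1, was the highest of these at 7.47, 7.78 and 8.24, with 3 well separated arrays, followed by TPX2 (7.60 ± 0.19). MKI67, the proliferation marker Ki-67, had 7.24, 7.01 and 7.23, at the 76.2nd percentile. The list medians, 6.81 for replication and 6.75 for mitosis, were at the 68.3rd and 66.8th percentiles. Both were lowest on replicate 1, at 6.67 and 6.61, against 6.86 and 6.76 on replicate 2 and 6.91 and 6.81 on replicate 3. The median of all genes was also lowest on replicate 1, at 6.04 against 6.07 on the others. Replicate 1 was lowest in 14 of 29 replication genes and 10 of 28 mitosis genes, against 37.9% of all genes. It was highest in 8 genes of each list, against 35.1% of all genes. In G1, CDK4 had 8.42, 8.35 and 8.40 and its partner CCND1, cyclin D1, had 8.34, 8.25 and 8.09, and these were the 2 of 11 above the KRTAP range on all arrays. CCNE1 (6.20 ± 0.36) and CCNE2 (5.97 ± 0.29), the cyclins of S phase entry, lay near the median gene.

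**Figure D4:**
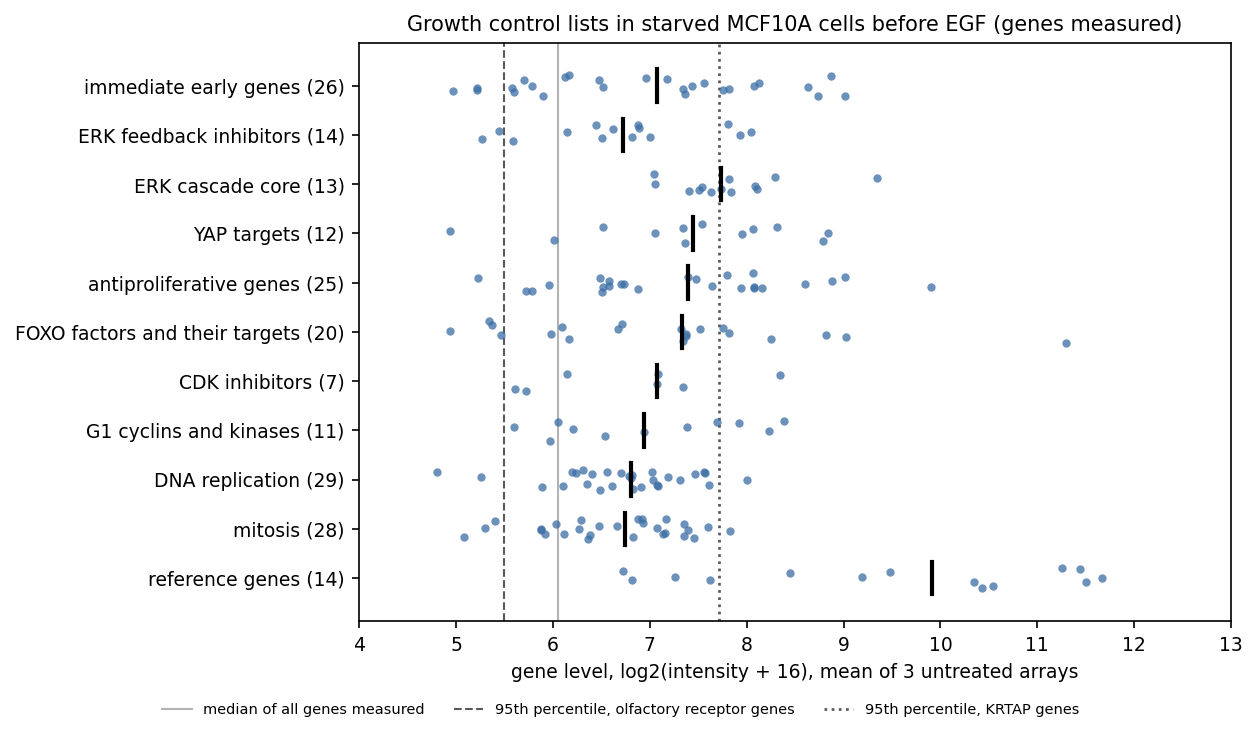
Gene levels of 11 growth control lists in the untreated cells, with log2(intensity + 16) on the horizontal axis and 1 point per measured gene at its mean over 3 arrays. Thick bars mark list medians, which were 9.91 for reference genes, 7.34 for FOXO factors and targets, 6.81 for DNA replication and 6.75 for mitosis, and no mitosis gene stood above the KRTAP range on all arrays.

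Genes of migration and matrix turnover showed a sharp divide. Integrin subunits ITGB1 (9.80 ± 0.19), ITGAV (9.29 ± 0.07) and ITGA3 (9.26 ± 0.14), the urokinase gene PLAU (9.10 ± 0.14), which activates plasminogen, and the membrane protease MMP14 (8.99 ± 0.17) headed the list, of which 16 of 21 exceeded the olfactory receptor range and 12 the KRTAP range. HAS2, a hyaluronan synthase, at 4.58 ± 0.25, and the secreted proteases MMP10 (4.66 ± 0.05), MMP1 (4.75 ± 0.08) and MMP3 (4.89 ± 0.11) were within the olfactory receptor range on every array. CD44, the hyaluronan receptor, had 8.63 ± 0.13. Among YAP targets and partners, AJUBA (8.84 ± 0.04), YAP1 itself (8.79 ± 0.15) and F3, tissue factor (8.31 ± 0.16), were highest and 11 of 12 exceeded the olfactory receptor range and 5 the KRTAP range, while ANKRD1 stood at 4.94 ± 0.16.

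Abundant noncoding and mitochondrial RNAs were also among the genes with the highest levels. RN7SK, the RNA that holds the elongation factor P-TEFb inactive, had 12.59, 12.36 and 12.16 and was second to KRT5 by mean level. The mitochondrial genes COX2 (12.33 ± 0.03), COX1 (12.20 ± 0.06), ATP6 (12.10 ± 0.07) and ND5 (11.68 ± 0.14) followed with KRT10, and MALAT1, a nuclear long noncoding RNA, had 11.55 ± 0.10. HSPB1P1 (11.67 ± 0.07) is a pseudogene of the heat shock gene HSPB1, so its signal cannot be told apart from that of HSPB1. Reference genes spread from ACTB (11.67 ± 0.09) to HPRT1 (6.72 ± 0.28), with a median of 9.91. EEF1A1 and ACTG1, both among the 15 highest, likewise have near-identical copies.

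The spread between the 3 untreated cultures was within that of the treated groups. The median SD of a gene was 0.142, and at the 6 times after EGF it ran from 0.101 at 240 min to 0.154 at 20 min. By level, the median SD was 0.097 in decile 1, the lowest, and 0.149 to 0.158 in deciles 4 to 10. The pseudocount of 16 compresses the spread of low genes and so sets part of this pattern. Over all genes the median SD was 0.202 with a pseudocount of 1 and 0.081 with 64. Leaving out replicate 1, the median SD was 0.101, without replicate 2 it was 0.127 and without replicate 3 it was 0.122. These are SDs over 2 arrays, whose median runs lower than over 3. They can be set against each other but not against 0.142.

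The genes with the largest spread were mostly a matter of replicate 1. Among the 112 genes above the olfactory receptor range with the largest SD (1% of them), replicate 1 was farthest from the median in 86 (76.8%), and it was the lowest array in 88 and the highest in 14. SRP9, a subunit of the signal recognition particle, had 8.43, 9.90 and 9.62, MRPL18, a mitochondrial ribosomal protein, had 6.40, 7.66 and 7.71, and LIMS1, an adaptor of integrin adhesions, had 6.65, 7.78 and 7.86. In these 3 genes replicates 2 and 3 were close and replicate 1 low. HDAC2, a histone deacetylase, had 6.12, 6.97 and 7.54, and ARPC2, a subunit of the actin-nucleating Arp2/3 complex, had 8.29, 9.21 and 9.78, so there each array stood apart. PRSS42P, with the largest SD of these (0.95), ran the other way at 7.79, 6.64 and 5.90, and APRT, an adenine salvage enzyme, also had its low value on replicate 3, at 7.93, 7.54 and 6.49. Beside this, the median level of named probesets minus that of unnamed ones was 1.21 on replicate 1, against 1.24 and 1.25 on replicates 2 and 3, and what part this has in the spread was not tested.

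**Figure D5:**
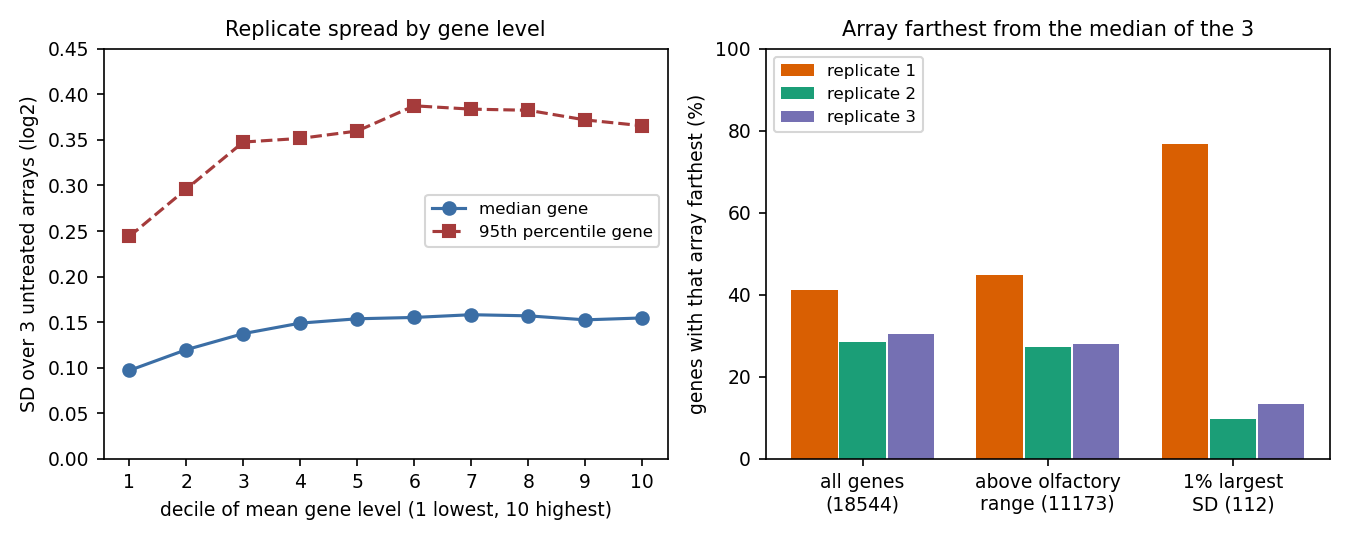
Left, the SD of gene levels over the 3 untreated arrays (log2 units) against the decile of mean level, as the median gene and the 95th percentile gene. Right, the percentage of genes for which each array was farthest from the median of the 3, which for replicate 1 was 41.2% of all genes, 44.8% of genes above the olfactory receptor range and 76.8% of the 112 genes with the largest SD.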

How the data were processed

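The deposited table holds 1 linear intensity per probeset and array for 1384231 probesets. The submitters' processing notes list PLIER and version 1.1 of Affymetrix Expression Console. How each was set, and how background and scale were handled, is not given in the sources used here. Detection calls did not enter. The platform annotation paired 354600 probesets with 1 gene symbol and 14898 with several, and 1014733 are unnamed here. Of 19497 symbols, 16426 were current, 2950 were updated through a synonym and 121 were kept. From the deposited intensity values, log2(intensity + 16) was computed with Python 3.11.15, pandas 2.3.3 and numpy 2.4.6, and a gene's level is the median over its single-symbol probesets (3 or more, 16 for the median gene). The pseudocount compresses differences between low values. Another 837 genes with 1 or 2 probesets were left out, as were 45 Y-linked or X-inactivation genes.

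With 1 condition there was no comparison to test, so no p-value is given, and 3 arrays limit the precision. The labels call the arrays biological triplicates. A gene was counted when each array exceeded the 95th percentile of olfactory receptor genes, or of KRTAP genes, on that array. The computation was checked on simulated data. Named by rule were all members of the ERBB, EGF ligand, CDK inhibitor and RB lists, the 5 highest and 3 lowest of each other list, and the 15 genes highest in level and the 15 largest in SD. All other genes named, such as TP63, ESR1, FOS and MKI67, and those whose sequences are shown, were chosen after their values were seen. The members and lists were chosen with earlier results of these data known.

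Promoters are RefSeq sequences of GRCh38.p14, 250 bases before to 50 after each start, matched by symbol. A list was assessed where at least 80% of its measured genes matched. No build is named for the array itself, so no probe coordinates are given. Alternatives were other pseudocounts (1 and 64), the mean or upper quartile over probesets, a filter on dim probesets, 1 or 8 probesets at least, the 99th percentile, quantile normalisation, KRTAP genes as the range, and leaving out each array.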

Additional observations from a re-analysis of the deposited data

How the results depend on the processing

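The count of genes above the olfactory receptor range was 11173 and stayed within 1.5 times under 11 settings, from 8784 with the 99th percentile to 12343 with the mean over probesets, and from 11262 to 11802 when 1 array was left out. It was 3164 with only probesets at or above the median of all, a filter that also raises the olfactory receptor genes, and 2092 with KRTAP genes as the range. The median SD was 0.202 with a pseudocount of 1, 0.081 with a pseudocount of 64 and 0.092 with the mean over probesets. With 1 array left out it was 0.101 to 0.127, an SD over 2 arrays that is not comparable with the SD over 3. All 31 list counts stayed within 1.5 times with pseudocounts of 1 and 64, at least 1 probeset and quantile normalisation. With the mean over probesets, the counts above the olfactory receptor range were 3 for the adipocyte list, 1 for milk proteins and 7 for the liver, neuron and muscle list. With the upper quartile they were 2 for adipocyte and 1 for milk proteins. With at least 8 probesets they were 10 for contractile myoepithelium, 3 for adipocyte, 7 for cornified envelope and S100, where fewer members are measured, and 7 for liver, neuron and muscle. With the 99th percentile leukocyte and adipocyte had 0. With 1 array left out, adipocyte had 1 to 2. With the probeset filter, the counts were 5 for mesenchyme, 0 for endothelium, leukocyte and adipocyte, 1 for EGF family ligands, 7 for other receptor tyrosine kinases, 4 for TGF-beta and BMP receptors, 3 for cytokine receptors, 2 for nuclear receptors, 8 for the ERK cascade, 9 for immediate early genes, 3 for feedback inhibitors, 1 for CDK inhibitors, 4 for RB and DREAM, 6 for FOXO, 11 for antiproliferative genes, 5 for G1, 3 for DNA replication, 2 for mitosis, 6 for YAP targets, 6 for long noncoding RNAs and 1 for liver, neuron and muscle. With KRTAP genes as the range, chosen after seeing the data, they were 1 for contractile myoepithelium, 4 for luminal, 4 for mesenchyme, 0 for endothelium, leukocyte and adipocyte, 1 for ERBB receptors, 1 for EGF family ligands, 7 for other receptor tyrosine kinases, 4 for TGF-beta and BMP receptors, 2 for cytokine receptors, 2 for nuclear receptors, 6 for the ERK cascade, 6 for immediate early genes, 3 for feedback inhibitors, 1 for CDK inhibitors, 3 for RB and DREAM, 5 for FOXO, 9 for antiproliferative genes, 2 for G1, 1 for DNA replication, 0 for mitosis, 5 for YAP targets, 5 for long noncoding RNAs and 0 for liver, neuron and muscle. Where no construction of the setting is named, the cause was not tested.

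Single genes were less stable in rank. Among 265 named genes, KLF9 moved most with the upper quartile, to the 77.0th percentile against the 30.2nd. FLT3 moved most with the probeset filter, to the 54.8th against the 6.72nd. A shift of at least the SD of a gene's percentile over the 3 arrays was counted as a move. With the upper quartile 158 of 265 genes moved, with the mean 121 of 265 and with the filter 165 of 253. The median shifts were 2.46, 2.06 and 4.03 percentile points. No gene moved with either pseudocount. Leaving out replicate 1 moved no named gene by more than 12.4 percentile points. Levels up to about 8.97, the mean of KRTAP5-7, cannot be told apart from what single KRTAP genes reach here. The KRTAP range lies lower, as it is the 95th percentile of these genes. No paired analysis was possible because the levels come from 1 group and from no test.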
